A study of Mus musculus with 6 samples.

Results

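The genes described here encode the sarcomere, the contractile unit of striated muscle, and the machinery that couples electrical excitation to its contraction. They were taken from a list of 46 gene symbols, each represented by the probe set with the highest mean over the 6 arrays where a gene had several. All 46 had a probe set, out of 20163 genes with a symbol. Only Trdn had more than 1, with 19, and the 18 not used had means of 2.31 to 6.05, against 7.21 for the probe set used.

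Muscle stem cells of adult female C57BL/6J mice, 6 to 8 weeks old, were grown for 2 days on Matrigel. All cultures then had 6 h without serum, with 200 ng/ml of the soluble BMP receptor ALK3-Fc, and a final pulse of 1 h. The pulse held 100 ng/ml BMP6, a bone morphogenetic protein, in 3 cultures, and its solvent alone, called vehicle here, in the other 3. No transgene or mutation is named in the labels. RNA of each culture went to 1 array, and values are log2 expression after RMA, a method that sets all arrays to a common distribution, so that a difference of 1 is a doubling.

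Activated stem cells proliferate as myoblasts, which leave the cell cycle, switch on the sarcomere genes under MyoD, myogenin and MEF2 factors, and fuse into myotubes. Thick filaments consist of myosin heavy and light chains, and thin filaments of actin, tropomyosin and the troponins C, I and T. Calcium released through the ryanodine receptor binds troponin C and starts contraction. Most of these proteins exist as paralogs used in embryonic, slow or fast muscle. The embryonic forms come first in developing and regenerating fibres, and adult forms come later.

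Pairs of arrays correlated at 0.994 to 0.997 over all genes. Known BMP target genes rose in BMP6. Id1, an inhibitor of myogenic basic helix-loop-helix factors, stood at 11.29, 11.27 and 11.35 in BMP6 and at 9.64, 9.61 and 9.92 in vehicle, and Smad7, a feedback inhibitor of the pathway, was higher by 1.72 on the log2 scale (limma adjusted p = 3.93e-05). Of 12 stem cell markers 11 lay above the median of all genes, and Calcr, the calcitonin receptor of quiescent cells, lay below it. The satellite cell factor Pax7 measured between 8.75 and 8.94 and Myod1 between 12.05 and 12.30 on the 6 arrays.

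Sample titles number the replicates 1, 2 and 3 in both treatments. The source names give mouse 1 to both replicate 1 samples and mouse 2 to both replicate 2 samples. For replicate 3 they disagree, with mouse 3 for BMP6 and mouse 2 for vehicle, although the column headers give that pair a common code, as they do for the other pairs. In the 46 genes, vehicle replicate 3 differed from BMP6 replicate 3 by a median of 0.126 and from vehicle replicate 2 by a median of 0.299. It differed by more than 1 from vehicle replicate 2 in 4 genes and from BMP6 replicate 3 in 0 genes. The same 46 genes are compared by replicate number below, so these distances are not separate evidence for that grouping. The replicate number of the titles is used below, and results with the mouse number in its place are given beside it.

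Many of the sarcomere genes differed between replicate numbers, and none was called between treatments. By limma's F test for replicate number, with treatment in the model, 19 of the 46 passed at an adjusted p under 0.05, while 0.392% of all genes did. Replicate 1 was higher than replicate 3 in 21 of the 46 (0.451% of all genes) and lower in 1 (0.0794%). In the other contrasts, replicate 1 was higher than replicate 2 in 10 members (0.124% of all genes) and lower in 0 (0.00992%), and replicate 2 was higher than replicate 3 in 7 (0.0546%) and lower in 0 (0.00992%). With arrays centred on their medians, the calls over all genes split into 114 higher and 104 lower in replicate 1, against 91 and 16 as deposited, and those of the members into 22 and 1. The median difference of replicate 1 minus replicate 3 was 0.50 over the 46 genes and 0.0148 over all genes.

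Members led the whole table in this contrast. They took the first 5 places by size, 8 of the first 10 and 12 of the first 20 among the 20163 genes. Of the 79 genes called by the F test, 24.1% were members, and 41.3% of the members were called. Leaving out 1 array leaves 1 replicate number with 1 array. Calls between replicates 1 and 3 fell when a replicate 1 or replicate 3 array was left out, in members and over all genes. They rose in both when a replicate 2 array was left out. The same 13 members passed each time: Myh3, Actc1, Myl1, Tnni1, Myl4, Tnnc1, Casq2, Mylpf, Klhl41, Mybph, Smpx, Acta1 and Myh1. Grouping by the mouse number of the source names leaves BMP6 replicate 3 alone in its group. No gene, member or not, then passed in limma. Replicate number cannot be told apart here from mouse, day of culture or handling. SEs, intervals and p-values for replicate number rest on the disagreement between the 2 arrays of a number. They do not measure variation between mice. In these bulk samples, fewer differentiated cells and less RNA per cell cannot be told apart either.

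Developmental isoforms were higher in replicate 1 than in replicate 3 in 5 of 5 members, with a median difference of 1.84. Myh3, the embryonic myosin heavy chain, had log2 levels of 8.88, 7.89 and 5.84 in replicates 1, 2 and 3 with BMP6, against 8.65, 7.89 and 5.86 with vehicle. Each number thus had its own level in both treatments, with 0.23 or less between the 2 arrays of a number. Replicate 1 was 7.55-fold above replicate 3 (95% interval 6.49 to 8.78, log2 difference 2.92, SE 0.10, limma adjusted p = 6.38e-07), the largest rise of any gene in the table. Actc1, the cardiac actin that also builds the first thin filaments of skeletal muscle, stood at 10.42, 9.30 and 7.69 in BMP6 and at 10.39, 9.21 and 7.63 in vehicle. Its 6.72-fold difference (5.88 to 7.69) was the next in size.

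Myl4, the embryonic and atrial light chain, measured 9.06, 8.38 and 7.08 in BMP6 in that order of replicates and 9.04, 8.28 and 7.33 in vehicle, a difference between replicates 1 and 3 of 1.84 (SE 0.10, adjusted p = 3.30e-05). Myh8, the perinatal heavy chain, lay at 6.42, 6.28 and 5.75 in BMP6 and 6.25, 6.23 and 5.65 in vehicle. Both replicate 3 arrays lay below the other 4, and replicates 1 and 2 lay close together. The difference was 0.63 (SE 0.09, adjusted p = 0.0145). Tnnt2, the cardiac troponin T that embryonic skeletal muscle shares, differed by 0.61 (SE 0.09, adjusted p = 0.0186), with values of 10.24, 9.84 and 9.69 in BMP6 and 10.20, 9.80 and 9.53 in vehicle. Myh8 passed in 8 of 12 alternatives and Tnnt2 in 9 of 13, not counting the mouse grouping, whereas Myh3, Actc1 and Myl4 passed in 13 of 13. Not all alternatives in these tallies are independent. The 2 deposited tables held the same values to within 5e-09, and averaging probe sets changed the values of no member but Trdn. Leaving out either replicate 2 array also gave the same counts of calls in this contrast.

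**Figure D1:**
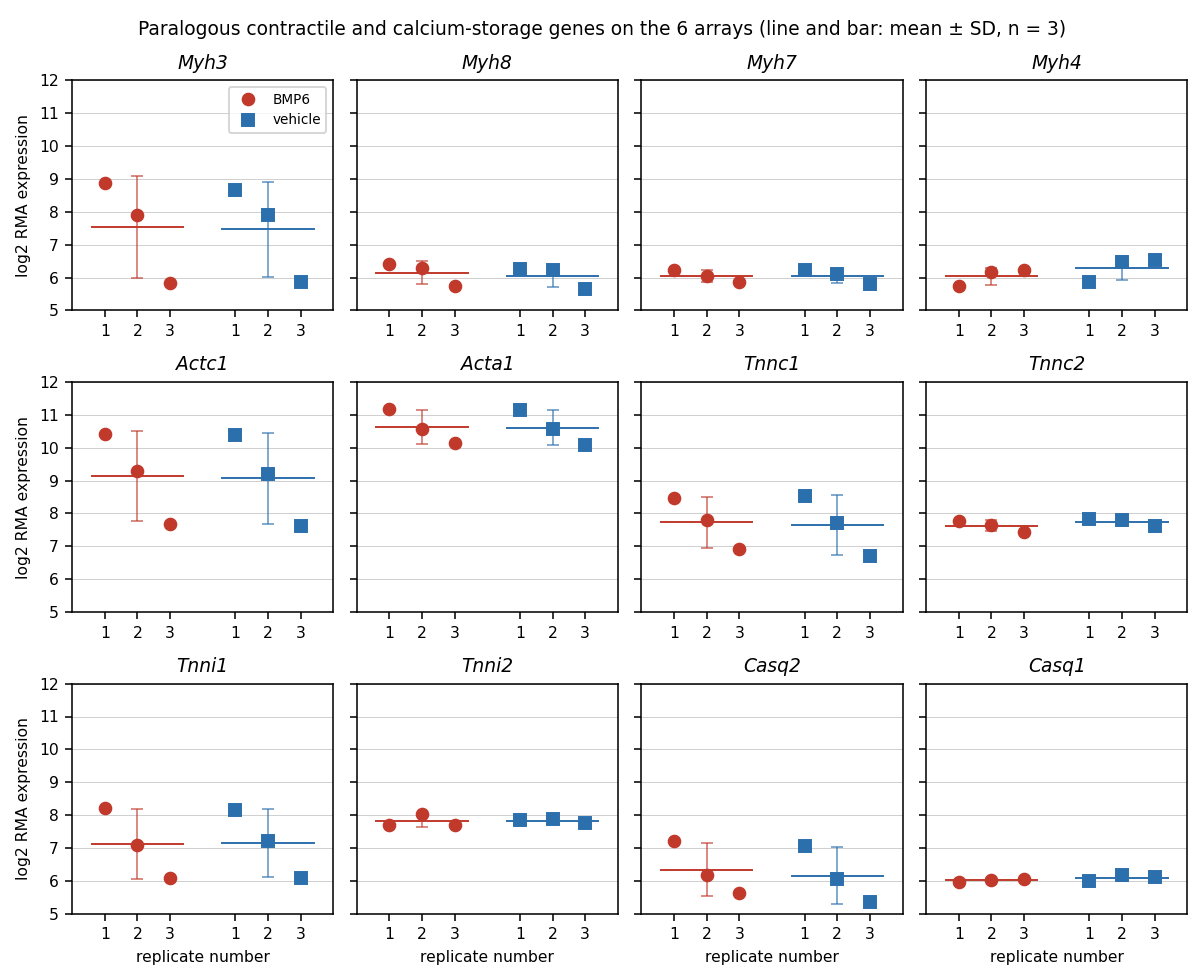
Log2 RMA expression (y axis) of 12 paralogs on the 3 BMP6 arrays (red circles, left) and the 3 vehicle arrays (blue squares, right), by replicate number. Lines and bars are the group mean ± SD (n = 3). Myh3 spans 5.84 to 8.88 in BMP6 and 5.86 to 8.65 in vehicle, while Casq1 lies between 5.98 and 6.18 on all 6 arrays.

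Slow isoforms were higher in replicate 1 in 4 of 7 members, at a median of 0.78. Tnni1, the slow inhibitory troponin, stood at 8.20, 7.09 and 6.09 in BMP6 and at 8.14, 7.22 and 6.08 in vehicle, a 4.24-fold difference between replicates 1 and 3 (3.68 to 4.89, adjusted p = 5.88e-06). Tnnc1, the calcium sensor of slow and cardiac thin filaments, stood at 8.46, 7.81 and 6.93 in BMP6 and 8.54, 7.71 and 6.71 in vehicle. Casq2, the cardiac and slow calsequestrin that stores calcium in the sarcoplasmic reticulum, stood at 7.20, 6.18 and 5.62 in BMP6 and 7.07, 6.06 and 5.35 in vehicle. In all 3 genes both replicate 1 arrays lay above both replicate 2 arrays, and these above both replicate 3 arrays. That order held in 20 of the 46 members and in 3.33% of all genes.

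Tnnt1, the slow troponin T, differed by 0.78 (SE 0.09, adjusted p = 0.00549), and passed in 9 of 13 alternatives. Its values were 8.17, 7.82 and 7.35 in BMP6 and 8.17, 8.03 and 7.42 in vehicle, with replicate 3 lowest in both. The slow heavy chain Myh7, at 6.23, 6.06 and 5.86 in BMP6 and 6.25, 6.10 and 5.81 in vehicle, had a difference of 0.40 (SE 0.09) and Myoz2, a Z-disc protein that binds calcineurin, one of 0.53 (SE 0.14), and neither passed (adjusted p = 0.0885 and 0.128). Mybpc1, the slow myosin-binding protein C, was level, at 6.31, 6.48 and 6.27 in BMP6 and 6.24, 6.31 and 6.29 in vehicle (difference -0.01, 95% interval -0.21 to 0.20).

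Fast isoforms were called higher in 3 of 13 members and lower in 1, with a median difference of 0.15. Myl1, the essential light chain of fast myosin, measured 8.51, 7.49 and 6.36 in BMP6 (replicates 1, 2 and 3, as throughout) and 8.49, 7.55 and 6.03 in vehicle, a 4.93-fold difference (4.17 to 5.84, adjusted p = 8.57e-06). Mylpf, the phosphorylatable fast light chain, had a 2.85-fold difference (2.43 to 3.35). Myh1, the IIx heavy chain, stood at 7.11, 6.59 and 6.05 in BMP6 and 6.73, 6.46 and 5.79 in vehicle, a difference of 1.00 (SE 0.09, adjusted p = 0.00127).

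Myh4, the heavy chain of the fastest IIb fibres, ran the other way. It stood at 5.75, 6.15 and 6.22 in BMP6 and at 5.86, 6.46 and 6.52 in vehicle, so that both replicate 1 arrays lay below the other 4. The difference was -0.56 (SE 0.09, adjusted p = 0.0325), and it passed in 7 of 12 alternatives. Myh4 did not pass the F test for replicate number (adjusted p = 0.0540). Neither did Xirp1 and Cav3 (adjusted p = 0.104 and 0.0909), which the contrast called higher in replicate 1. The mean of Myh4 lay at percentile 45.3 of all genes, and dim probe sets show compressed differences. The heavy chain genes are close paralogs, and hybridisation of one transcript to another's probes was not tested.

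The remaining fast members were Myh2, Tnnt3, Tnnc2, Tnni2, Actn3, Mybpc2, Myoz1, Atp2a1 and Casq1, with differences of -0.10 to 0.47, none past the threshold in limma. At an unadjusted p under 0.05 there were 6 fast members in all, and 3311 of the 20163 genes. Atp2a1, the calcium pump of the fast sarcoplasmic reticulum, had a difference of 0.00 (95% interval -0.23 to 0.24), and Tnni2, the fast inhibitory troponin, one of 0.04 (-0.18 to 0.26). Tnni2 stood at 7.71, 8.04 and 7.71 in BMP6 and at 7.84, 7.89 and 7.77 in vehicle, with replicate 2 highest in both. Tnnc2, the fast troponin C, measured 7.78, 7.66 and 7.44 in BMP6 and 7.82, 7.80 and 7.61 in vehicle. Tnnt3, the fast troponin T, measured 8.89, 8.79 and 8.40 in BMP6 and 8.72, 8.83 and 8.27 in vehicle, with both replicate 3 arrays lowest. Casq1, the fast calsequestrin, lay between 5.98 and 6.18 on all 6 arrays.

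Paralogs differed among themselves, and in both directions. Between replicates 1 and 3 the interval was 1.88 to 2.29 for Tnni1 and -0.18 to 0.26 for Tnni2. For troponin C it was 1.46 to 1.90 for Tnnc1 and 0.08 to 0.47 for Tnnc2, and for calsequestrin 1.45 to 1.85 for Casq2 and -0.30 to 0.10 for Casq1. In the heavy chains it was 2.70 to 3.13 for Myh3 and -0.77 to -0.36 for Myh4, but the fast Myh1, at 0.79 to 1.22, lay above the slow Myh7, at 0.21 to 0.60. In the light chains the fast Myl1 had 2.06 to 2.54 and the embryonic Myl4 1.61 to 2.07, which overlap. Troponin T had 0.58 to 0.99 for Tnnt1 and 0.26 to 0.68 for Tnnt3, which overlap, and Mybpc1 and Mybpc2 overlapped as well (-0.21 to 0.20 and -0.17 to 0.22).

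The 250 bases before the start of 3 of these pairs are printed to show the sequence in front of paralogs with unlike differences, with each E-box, the site CANNTG read by MyoD and myogenin, in capitals. They are RefSeq sequences of GRCm38.p6, on the strand of the gene, at chr11:67078050-67078299 (+ strand), chr11:67237562-67237811 (+ strand), chr14:31208062-31208311 (+ strand), chr2:164779735-164779984 (- strand), chr3:102086165-102086414 (+ strand) and chr1:172219896-172220145 (- strand). The pairs were chosen after their values were known.
Myh3 promoter: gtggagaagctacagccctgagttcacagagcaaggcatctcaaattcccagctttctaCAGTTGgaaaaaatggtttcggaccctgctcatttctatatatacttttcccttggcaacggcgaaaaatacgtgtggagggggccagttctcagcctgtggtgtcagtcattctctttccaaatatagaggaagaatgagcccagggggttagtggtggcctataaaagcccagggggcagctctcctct
Myh4 promoter: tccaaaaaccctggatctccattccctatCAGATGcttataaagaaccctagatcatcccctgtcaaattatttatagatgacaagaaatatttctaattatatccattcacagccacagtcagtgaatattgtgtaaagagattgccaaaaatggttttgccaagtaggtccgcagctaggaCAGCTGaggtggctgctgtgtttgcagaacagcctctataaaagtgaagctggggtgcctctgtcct
Tnnc1 promoter: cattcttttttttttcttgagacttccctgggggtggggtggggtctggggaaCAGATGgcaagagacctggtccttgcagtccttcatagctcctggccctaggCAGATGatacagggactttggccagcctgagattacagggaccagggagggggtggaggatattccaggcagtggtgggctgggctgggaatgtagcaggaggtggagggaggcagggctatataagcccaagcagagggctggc
Tnnc2 promoter: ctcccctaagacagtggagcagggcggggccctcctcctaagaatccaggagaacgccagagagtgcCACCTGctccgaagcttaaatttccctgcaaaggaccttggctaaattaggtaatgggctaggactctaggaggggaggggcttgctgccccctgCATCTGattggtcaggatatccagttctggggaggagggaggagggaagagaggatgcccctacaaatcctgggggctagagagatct
Casq2 promoter: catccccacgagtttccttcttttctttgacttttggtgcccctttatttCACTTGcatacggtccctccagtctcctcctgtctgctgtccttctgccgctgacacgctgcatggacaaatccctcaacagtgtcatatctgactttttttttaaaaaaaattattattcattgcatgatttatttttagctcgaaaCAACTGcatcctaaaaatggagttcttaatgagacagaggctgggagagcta
Casq1 promoter: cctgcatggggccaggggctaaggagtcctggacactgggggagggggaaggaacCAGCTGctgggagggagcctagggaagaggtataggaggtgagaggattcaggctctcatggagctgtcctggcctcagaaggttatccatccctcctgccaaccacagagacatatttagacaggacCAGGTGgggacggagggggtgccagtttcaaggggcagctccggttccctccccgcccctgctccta

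Myh3 had 1 E-box in this window, and the other 5 promoters had 2 each. Myh4, lower in replicate 1, and Casq2, higher there, both held a match to the MEF2 motif, and the other 4 held none. Promoter windows were found for 36 members, 40 windows in all, and not for Cacng1, Myom2, Trdn, Tcap, Tnnt3, Myoz1, Neb, Actn3, Tnni2 and Xirp1. An E-box was in 80.0% of them and in 66.2% of the 32851 windows of all genes. The form CAGCTG, itself an E-box, was in 18 of the 40 member windows and in 4271 of the 32851, and the MEF2 motif, searched on both strands, in 17.5% of member windows and 2.92% of all. Among members higher in replicate 1 than in replicate 3 an E-box was in 81.0% of 21 windows, and among the other members in 78.9% of 19. CAGCTG was in 47.6% of these 21 and in 42.1% of those 19, and the MEF2 motif in 19.0% and 15.8%. TATAAA on either strand was in 33.3% of these 21 and in 5.26% of those 19, against 12.4% of all windows. Differences in motif share between these sets of members were not tested.

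Filament, Z-disc and M-band genes used by all fibre types were higher in replicate 1 in 7 of 15 members, at a median of 0.58. Acta1, the skeletal actin, stood at 11.19, 10.57 and 10.14 in BMP6 and at 11.16, 10.56 and 10.09 in vehicle, a difference of 1.06 (SE 0.09, adjusted p = 0.000529). Klhl41, a Kelch protein that stabilises nebulin, differed by 1.28 (SE 0.11), and Mybph, a myosin-binding protein, by 1.11 (SE 0.11). Smpx, a small protein of the costamere, stood at 5.62, 4.88 and 4.42 in BMP6 and 5.75, 5.16 and 4.76 in vehicle (difference 1.09, SE 0.09). Although dim, at percentile 24.0, it passed in 12 of 12 alternatives.

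The Z-disc crosslinker Actn2 (0.74, SE 0.09) and the tropomyosin Tpm2 (0.67, SE 0.10) each passed in 9 of 13 alternatives, and Xirp1, which binds actin at cell junctions and remodelling sites, in 7 of 13 (0.58, SE 0.10). Neb, the nebulin ruler of the thin filament, missed the threshold (0.60, SE 0.11, adjusted p = 0.0599). The Z-disc gene Ldb3 and the M-band genes Myom1 and Myom2 had differences of 0.41, 0.20 and 0.44 that did not pass. Des, the intermediate filament of muscle cells, present before differentiation, stood at 12.01, 11.98 and 11.64 in BMP6 and 12.15, 11.88 and 11.99 in vehicle (difference 0.27, 95% interval 0.02 to 0.53, adjusted p = 0.270). Tpm1, which non-muscle cells also express, and Tcap, a titin cap protein, were level, at -0.02 and 0.03. The giant spring Ttn stood at 8.78, 8.99 and 8.36 in BMP6 and at 7.94, 8.87 and 8.50 in vehicle, so its 2 replicate 1 arrays were 0.84 apart and the 2 treatments gave opposite signs, 0.42 in BMP6 and -0.56 in vehicle.

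Membrane and triad genes were higher in replicate 1 in 2 of 5 members. Cacng1, the gamma subunit of the dihydropyridine receptor, stood at 9.07, 9.09 and 8.55 in BMP6 and 9.06, 9.03 and 8.47 in vehicle (difference 0.55, SE 0.09, adjusted p = 0.0253). Replicates 1 and 2 coincided, and replicate 3 lay lower. Cav3, the muscle caveolin, differed by 0.54 (SE 0.09, adjusted p = 0.0433), and passed in 6 of 12 alternatives. Ryr1, the calcium release channel, Cacna1s, the voltage sensor that gates it, and Trdn, the triadin that links it to calsequestrin, had differences of 0.40, 0.19 and 0.16, none called in limma. Of all 8 members of excitation-contraction coupling, calsequestrins and pump included, 3 were called higher. An unadjusted p under 0.05 was found in 4 of them, and in 3311 of the 20163 genes. Ckm, the creatine kinase that buffers ATP, stood at 7.37, 7.61 and 7.71 in BMP6 and 7.40, 7.83 and 7.72 in vehicle (difference -0.33, adjusted p = 0.141).

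**Figure D2:**
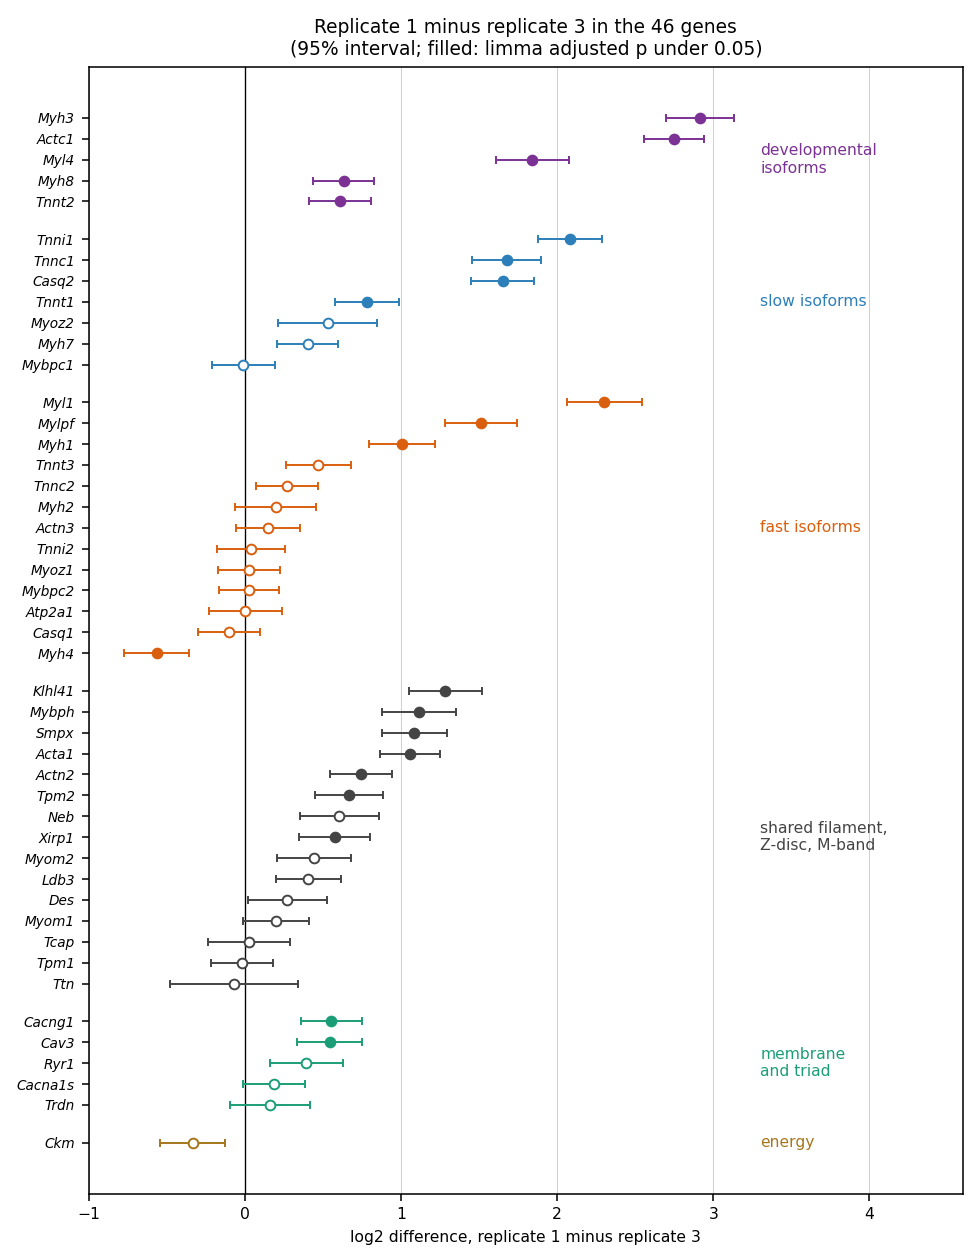
Log2 difference of replicate 1 minus replicate 3 (x axis, treatment in the model) in the 46 genes, grouped by isoform class or role, with 95% intervals. Filled points have a limma adjusted p under 0.05: 21 lie to the right of 0, and Myh4 lies to the left.

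The difference between replicates 1 and 3 was measured separately in each treatment, on arrays that are not shared. The BMP6 and vehicle arrays of a number share a header code, and those of replicate 1 a mouse in the source names. The differences in BMP6 and in vehicle therefore cannot be taken as independent repeats. Across the 46 genes the differences in BMP6 and in vehicle correlated at 0.958, and across all genes at 0.453, as a description over genes, which are not independent. The median was 0.51 in BMP6 and 0.41 in vehicle. Both replicate 1 arrays lay above both replicate 3 arrays in 34 of the 46, as in 27.2% of all genes, and below them in 4, as in 23.3%.

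**Figure D3:**
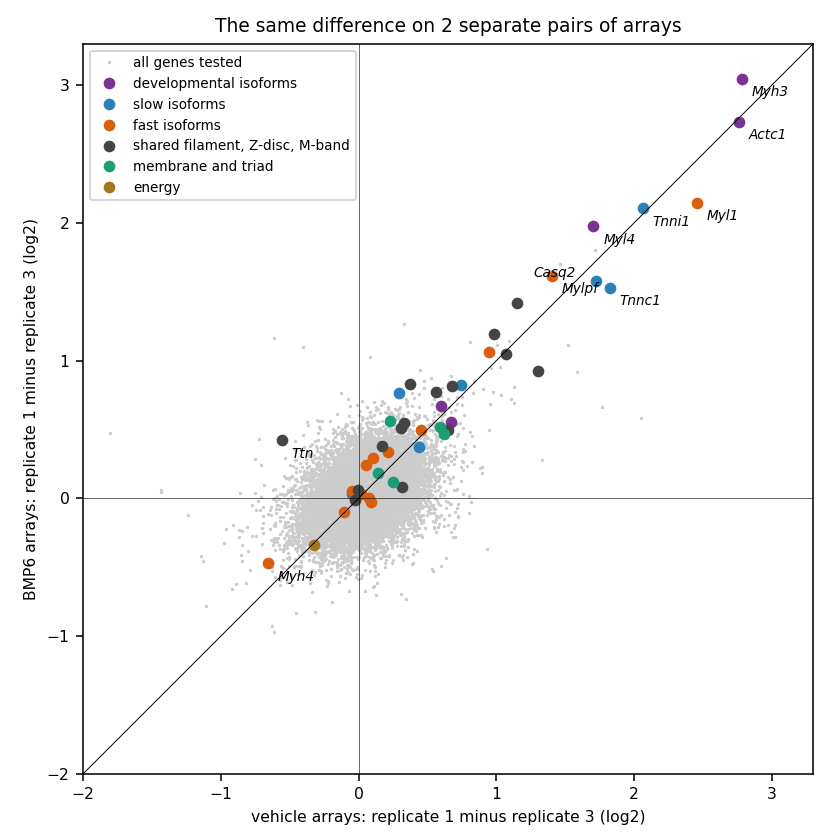
Replicate 1 minus replicate 3 on the BMP6 arrays (y axis) against the same difference on the vehicle arrays (x axis), in log2 units. Grey dots are all genes tested, coloured points the 46 members by class, and the line marks equality. Myh3 lies at 3.05 in BMP6 and 2.79 in vehicle, Ttn at 0.42 and -0.56.

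Genes outside the member list had called differences too. Myog, the differentiation factor myogenin, differed between replicates 1 and 3 by 1.76 (SE 0.13, adjusted p = 0.000282), and Mymk, the fusion protein myomaker, by 1.58 (SE 0.11, adjusted p = 0.000129). Mymk stood at 9.43, 8.99 and 7.73 in BMP6 and 9.40, 8.82 and 7.94 in vehicle. Of 11 myogenic transcription factors 1 was called higher in replicate 1, with Myod1 at 0.00, Pax7 at 0.02 and Mef2c at 0.30. Myf5, a factor of undifferentiated myoblasts, passed the F test (adjusted p = 0.0295). It measured 9.88, 9.58 and 10.23 in BMP6 and 10.19, 9.91 and 10.62 in vehicle, lower in replicate 2 than in replicate 3 by -0.68 (adjusted p = 0.0343) and at -0.39 between replicates 1 and 3 (adjusted p = 0.0975). Of 8 genes of cell cycle exit and fusion 2 were higher, Mymk and the adhesion molecule Jam2 (0.57), while the inhibitor Cdkn1a did not pass (0.18). Of 58 further sarcomere and calcium-handling genes 6 were higher and 0 lower, with a median of 0.17. Those of lowest p were Lmod3, a leiomodin that elongates thin filaments (1.12), Myl6b, a slow light chain (0.89), Pdlim3, a Z-disc protein (0.70), and Pgam2, the muscle phosphoglycerate mutase (0.63).

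Other measures moved with replicate number, and their part in the result was not tested. Of 30 genes of DNA replication and mitosis, 26 had both replicate 1 arrays below both replicate 3 arrays, as 23.3% of all genes did. Their median difference was -0.19, and 0 passed in limma, with 14 at an unadjusted p under 0.05 (as were 3311 of the 20163 genes). Among the 12 stem cell markers 3 passed the F test, Myf5, Cd34 and Fgfr4. The receptor Fgfr4 was lower in replicate 1 than in replicate 3 (-0.72), and the surface sialomucin Cd34 was higher in replicate 1 than in replicate 2 (0.92, adjusted p = 0.0089). Among markers of 4 kinds of other cells, those called between replicates 1 and 3 were 0 of 12 endothelial, 0 of 11 pericyte and smooth muscle, 1 of 13 immune (Laptm5, 0.55 higher) and 1 of 16 fibro-adipogenic and adipocyte markers (Dcn, decorin, -0.79). At an unadjusted p under 0.05 there were 1 endothelial, 2 pericyte, 1 immune and 3 fibro-adipogenic markers, and 3311 of the 20163 genes.

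Summed over the list, log2 levels of the fibro-adipogenic markers were 94.3 and 96.1 in replicate 1 and 96.8 and 96.5 in replicate 3, and those of the immune markers 70.1 and 70.7 against 68.6 and 69.2. The endothelial sums were 67.8 and 67.3 in replicate 1 and 66.6 and 66.8 in replicate 3, and the pericyte sums 73.2 and 73.3 against 71.9 and 72.7 (BMP6 before vehicle in each pair). No marker can be at 0 on this scale. Above the median of all genes lay 1 of 12 endothelial and 2 of 13 immune markers. So did 5 of 11 pericyte and smooth muscle markers, and 6 of 16 fibro-adipogenic and adipocyte markers.

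No sarcomere gene passed the test of the BMP6 pulse. In BMP6 against vehicle 0 of the 46 passed in limma, where 0.0843% of all genes did, and 1, Xirp1, had an unadjusted p under 0.05 (3.17% of all genes). The median difference was 0.01 over the 46, and -0.0013 over all genes. No member had its 3 BMP6 values all above or all below its 3 vehicle values, as 3.84% and 3.86% of all genes had. The spread between replicates set wide limits in this test: the SE of Myh3 was 0.79 and that of Actc1 0.73.

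Within replicate numbers the treatments lay close together, and the limits were much narrower. With replicate number as a block, the SE was 0.08 for Myh3 and 0.07 for Actc1, and again 0 of 46 passed, as 0.144% of all genes did. At an unadjusted p under 0.05 there were 6 of the 46 members, and 5.84% of all genes. The 95% interval lay within 0.5 of 0 in 44 of the 46 members, the exceptions being Xirp1 and Ttn. The half-width of the interval had a median of 0.171. This interval is not adjusted over genes, so a call with 3 pairs took larger differences than that. Even Xirp1, at 0.42, had a limma adjusted p of 0.213 with the block.

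Myh3 differed by 0.23, 0.00 and -0.03 between BMP6 and vehicle in replicates 1, 2 and 3. Actc1 differed by 0.03, 0.10 and 0.06, Tnni1 by 0.06, -0.13 and 0.01, and Acta1 by 0.03, 0.01 and 0.05. In these 4 genes, all higher in replicate 1 than in replicate 3, BMP6 levels lay within 0.23 of vehicle in every pair.

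Xirp1 had the largest difference of any member. It stood at 8.15, 7.93 and 7.65 in BMP6 and at 7.90, 7.33 and 7.24 in vehicle, 0.26, 0.59 and 0.41 higher within replicates 1, 2 and 3. The mean difference of 0.42 (95% interval 0.23 to 0.60 with the block, 1.34-fold) did not pass (adjusted p = 1 without the block, 0.213 with it). The groups overlapped, because BMP6 replicate 3 lay below vehicle replicate 1. The other members with an unadjusted blocked p under 0.05 were Myh1 (0.25), Casq2 (0.18) and Actn2 (0.16), measured above vehicle in every pair, and Smpx (-0.25) and Myh4 (-0.24), measured below it in every pair. Their adjusted p with the block lay between 0.657 and 0.854.

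By class, the median difference of BMP6 minus vehicle was 0.07 in developmental, 0.00 in slow and -0.05 in fast isoforms, 0.03 in shared filament genes and 0.04 in membrane and triad genes. None of these classes held a call. Members measured above vehicle in all 3 pairs numbered 9 (19.6%, against 13.3% of all genes), and those below it in all 3 numbered 8 (17.4%, against 12.3%). Ttn was above vehicle by 0.84 in replicate 1, by 0.13 in replicate 2 and below it by -0.14 in replicate 3, so its mean of 0.27 rests on replicate 1.

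**Figure D4:**
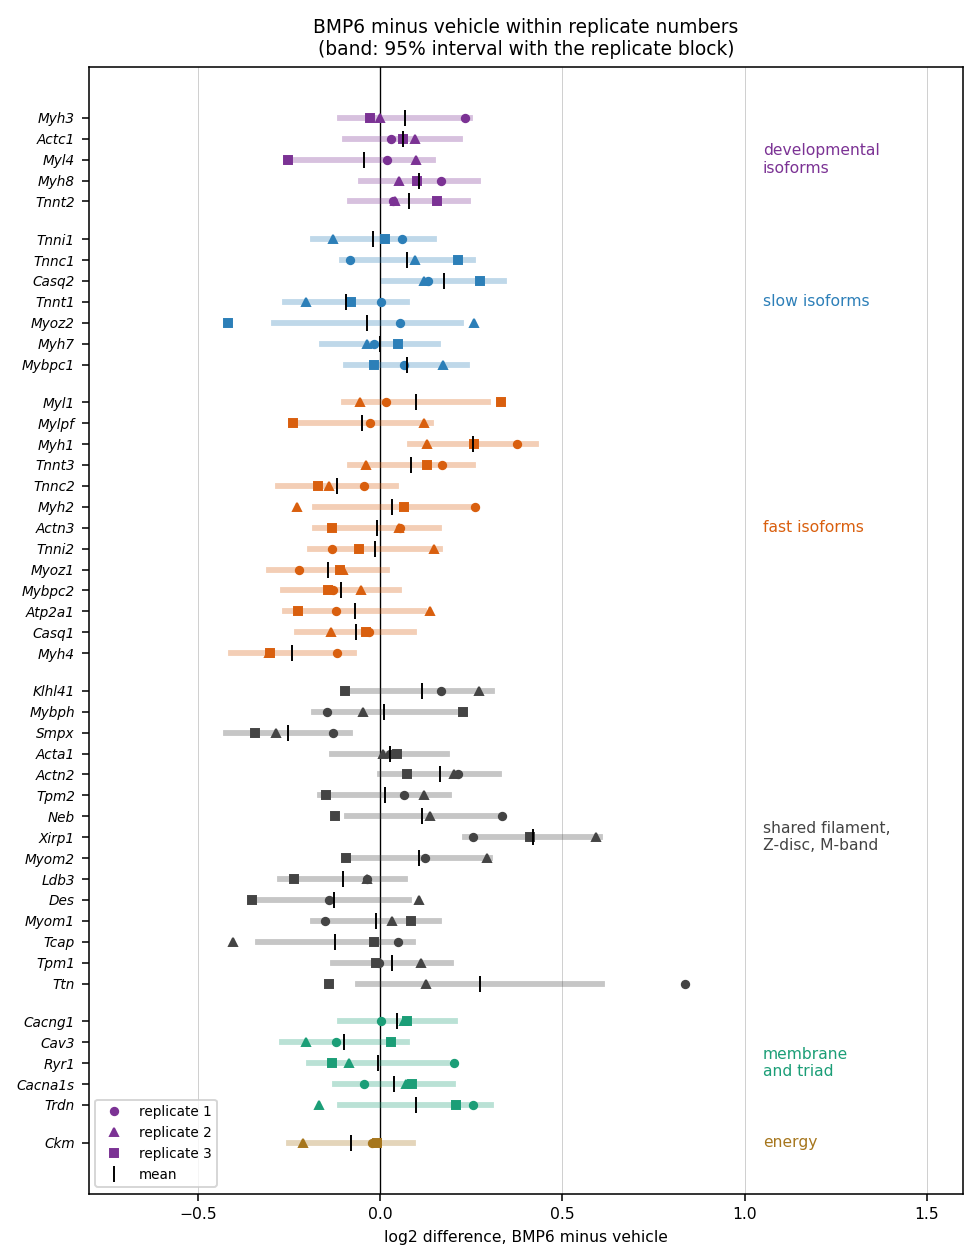
Log2 difference of BMP6 minus vehicle (x axis) within replicate 1 (circles), 2 (triangles) and 3 (squares) for the 46 genes, with the mean (tick) and the 95% interval of the blocked fit (band). All points but Ttn in replicate 1, at 0.84, and Xirp1 in replicate 2, at 0.59, lie within 0.5 of 0.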

How the data were processed

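The authors deposited a log2 value per probe set and array. The submitters' processing notes name RMA and the oligo package. Software versions, array type and annotation source were not given in the sources used here. Of the 2 tables, the second held the same values to within 5e-09. Of 34760 probe sets 21893 had a symbol, giving 20163 genes after keeping the probe set with the highest mean per gene. Dim probe sets were kept. Arrays carry no read depth, so the number of arrays limits the precision.

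Linear models were fitted to the whole table by lmFit and eBayes (limma 3.58.1, R 4.3.3): treatment alone (4 residual and 5.72 prior degrees of freedom), and treatment plus replicate number (2 and 7.75). P-values are two-sided and Benjamini-Hochberg adjusted over the 20163 genes, with a call at 0.05. SDs are over 3 arrays. Both fits were tested on simulated data. Beyond the replicate and mouse numbers, no label says whether cultures were independent, so p-values measure the spread between these arrays. In the fit with replicate number, that spread is the disagreement between the 2 arrays of a number, after the treatment difference. It does not measure variation between mice.

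The source names pair the samples of numbers 1 and 2 by mouse and the column headers pair all 3 by a code. Deviations from the group means correlated within pairs 1, 2 and 3 at 0.315, 0.0475 and 0.434 over all genes, and at 0.950, 0.475 and 0.942 over the members. Unlike numbers correlated at -0.439 to 0.179 over all genes, the highest being BMP6 replicate 1 with vehicle replicate 2, above the value of pair 2.

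The members, isoform classes and marker lists were chosen with earlier results of these data known. Every member could be named, with array values for those of lowest p in each class and for isoform pairs, and of other genes a fixed few and up to 4 per list by lowest p. Alternatives covered blocks, the mouse number, probe set choice, a filter, scaling, the prior, the other table and leaving out each array. Fits on replicates 1 and 2 alone were chosen after seeing the data. Promoter windows were matched by symbol. The result of 1 marker list is not reported here.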

Additional observations from a re-analysis of the deposited data

How the results depend on the processing

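For BMP6 minus vehicle, the number of members called was 0 in each of the 17 alternatives, the replicate block among them (fixed, random, or on replicates 1 and 2 alone), and the block changed no member's call. Over all genes 17 passed without the block and 29 with it, and 7 to 32 over the alternatives. The members' median difference was 0.119 when the source names' mouse number was the block, and -0.122 to 0.147 with 1 array left out, which unbalances the replicate numbers. Differences below the threshold changed sign in 20 of 46 members without BMP6 replicate 1. For replicate number, grouping by the mouse of the source names called 0 members by the F test and 0 in each contrast, and 0 of all genes. With 1 array left out, the F test called 11 to 18 members, the contrast of replicates 1 and 3 called 13 to 23, that of 1 and 2 called 0 to 8, that of 2 and 3 called 4 to 6, and the median was 0.433 to 0.523. A lone array was then assumed to vary like the others. Calls over all genes between replicates 1 and 3 moved in the same directions as those of the members. Quantile normalization over genes with a symbol left 12 members in the F test and 3 between replicates 1 and 2. Restricting the fit to genes above the median mean, which kept 31 members, gave 16 between replicates 1 and 2, 17 between 2 and 3, and a median of 0.605. The intensity trend with a robust prior gave 17 between 2 and 3. Calls over all genes between replicates 1 and 3 also rose in both settings, as given below, so these member counts cannot be read alone. Centring arrays on their medians turned the all-gene split of replicate 1 against 3 to 114 higher and 104 lower and that of the members to 22 and 1, against 91 and 16, and 21 and 1, as deposited. The filter on the median mean gave 368 and 404 over all genes, and the trend 294 and 219. Genes near 0 (Tnni2, Mybpc2, Myoz1, Atp2a1 and Tcap) changed sign under the centring, while 0 of the called members reversed in any alternative. Of the 15 members dimmer than the median gene, 4 were called higher and 1 lower in replicate 1, and compression limits what such probe sets can show.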

Other observations

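Outside muscle genes, 4 genes of the cornified envelope of skin also stood higher in replicate 1. Both sets here were picked with their values in view. Sprr1a had log2 levels of 7.06, 6.35 and 5.95 in replicates 1, 2 and 3 with BMP6, against 7.52, 6.30 and 6.01 with vehicle, a difference between replicates 1 and 3 of 1.32 (SE 0.12, limma adjusted p = 0.00118), rank 12 of all genes. Loricrin differed by 1.25 (adjusted p = 0.00460), Lce1c by 1.22 (adjusted p = 0.0328) and Lce1g by 0.68 (adjusted p = 0.0141). Lce1h and Ivl, of the same structure, had differences of 0.47 and 0.24 that did not pass (adjusted p = 0.0938 and 0.251). The keratinocyte genes Krt1, Krt10, Dsg3, Krt5, Krt14 and Trp63 had differences of 0.08, 0.06, 0.05, -0.02, -0.05 and 0.00, and none of them passed.

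Within the first 25 genes by this difference were also Cavin4 and Trim72, muscle membrane proteins, at 1.02 and 0.97 (adjusted p = 0.00127 and 0.00285), and Gbp4, an interferon-induced GTPase, at 1.06 (adjusted p = 0.000815).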
